A study of Mus musculus with 6 samples.

Results

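miR-147 was followed through small RNA libraries of immune cells isolated from mouse liver, as its 2 mature arms, miR-147-3p and miR-147-5p. Both were taken by name from a table of 1960 mature mouse miRNAs. The rule goes by name alone, but miR-147 was picked for description with earlier results of these data known. Both arms passed the filter on low counts through the groups given ConA, where they are higher; the Vehicle counts alone would not have passed it. ConA+D8THC mice received, through the retro-orbital sinus, 12.5 mg/kg of concanavalin A (ConA), a lectin from jack beans that stimulates T cells and is used to provoke autoimmune hepatitis. They also had 20 mg/kg of the cannabinoid D8THC (delta-8-tetrahydrocannabinol) injected into the peritoneum, 15 to 18 h ahead of ConA and once more 30 min after it. ConA+Vehicle mice received the same ConA dose, and Vehicle mice had no disease and are labelled DMSO; the vehicle was DMSO in corn oil. All were wildtype female C57BL/6J mice aged 10 weeks, and each of the 3 groups had 2 libraries, called biological replicates in the labels. How many mice stand behind a library, and at which hour after ConA the livers were taken, is not given in the sources used here. If the libraries of a group are not from separate animals, the p-values measure technical spread only. Besides blood-cell miRNAs such as miR-142a (7.72% to 11.2% of counts in ConA+D8THC, 9.03% to 10.3% in ConA+Vehicle and 2.53% to 7.31% in Vehicle), the libraries held endothelial and hepatocyte miRNAs, whose shares are given below beside the results.

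A hairpin precursor is cut into a duplex whose strands are the 5p and 3p arms, and one of them usually accumulates more than the other in the silencing complex. In mouse macrophages miR-147 is induced by Toll-like receptor ligands through NF-kappaB, and added miR-147 lowers the release of inflammatory cytokines by these cells. Its hairpin is carried by the transcript of AA467197 (also Nmes1), a gene for a small mitochondrial protein related to a subunit of the respiratory chain.

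The Mir147 hairpin lies on the plus strand of chromosome 2, 122640803 to 122640881 in build mm10 (GRCm38), within AA467197 (122636986 to 122641191, plus strand, GENCODE M21). It falls in an exon of 3 of the 4 annotated transcripts. In 2 of these 3 it starts 34 bases after the stop codon, in the 3′ UTR, and the third is annotated as a processed transcript. Of the 2 arms, 1 was matched to a mature entry, miR-147-5p, at 122640814 to 122640837, and it is shown for its seed. The sequence is from RefSeq (GRCm38.p6), 5′ to 3′, and capitals mark the seed (bases 2 to 8), which pairs with target RNAs.
miR-147-5p: uGGAAACAuuucugcacaaacuag
Among 1738 mature entries of that RefSeq table, 1 had this seed, miR-147-5p itself, so no other listed mouse miRNA shares its targeting bases. Both arms are counted from 1 locus.

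Both arms of miR-147 were scarce in Vehicle libraries and higher in every library of the groups given ConA, with or without D8THC. For replicates 1 and 2, miR-147-3p had 81 and 34 counts in ConA+D8THC, 35 and 20 in ConA+Vehicle, and 6 and 6 in Vehicle. Library totals were 913285 and 690713 in ConA+D8THC, 381274 and 322764 in ConA+Vehicle, and 753887 and 1172389 in Vehicle, so both Vehicle libraries were deeper than both ConA+Vehicle libraries and yet held fewer miR-147-3p counts. As CPM, which scales counts to a fixed library size after TMM adjustment, miR-147-3p was at 83.6 and 48.4 CPM in ConA+D8THC, 87.3 and 66.2 CPM in ConA+Vehicle, and 8.28 and 5.26 CPM in Vehicle. The lowest library with ConA was thus several times above the highest Vehicle library, while the 2 groups given ConA overlapped. By count, miR-147-3p ranked 153rd and 173rd among all miRNAs in ConA+D8THC, 154th and 166th in ConA+Vehicle, and 295th and 325th in Vehicle. In these bulk libraries, fewer cells of a type and less RNA per cell cannot be told apart.

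miR-147-5p, the scarcer arm, had 21 and 12 counts in ConA+D8THC, 14 and 8 in ConA+Vehicle, and 1 and 0 in Vehicle. Its level was 21.7 and 17.1 CPM in ConA+D8THC, 34.9 and 26.5 CPM in ConA+Vehicle, and 1.38 and 0 CPM in Vehicle. The Vehicle library without a count allows up to 2.63 CPM by the level of 3 counts at its depth, and up to 3.23 CPM by the exact two-sided 95% Poisson interval that the plot of levels draws. All 4 libraries with ConA were above both limits. Intervals and limits of this kind cover counting error only. For this arm the ConA+D8THC libraries were both below the ConA+Vehicle libraries. With 2 against 2 libraries, an exact two-sided permutation test cannot go below p = 0.333, so this order alone decides nothing.

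**Figure D1:**
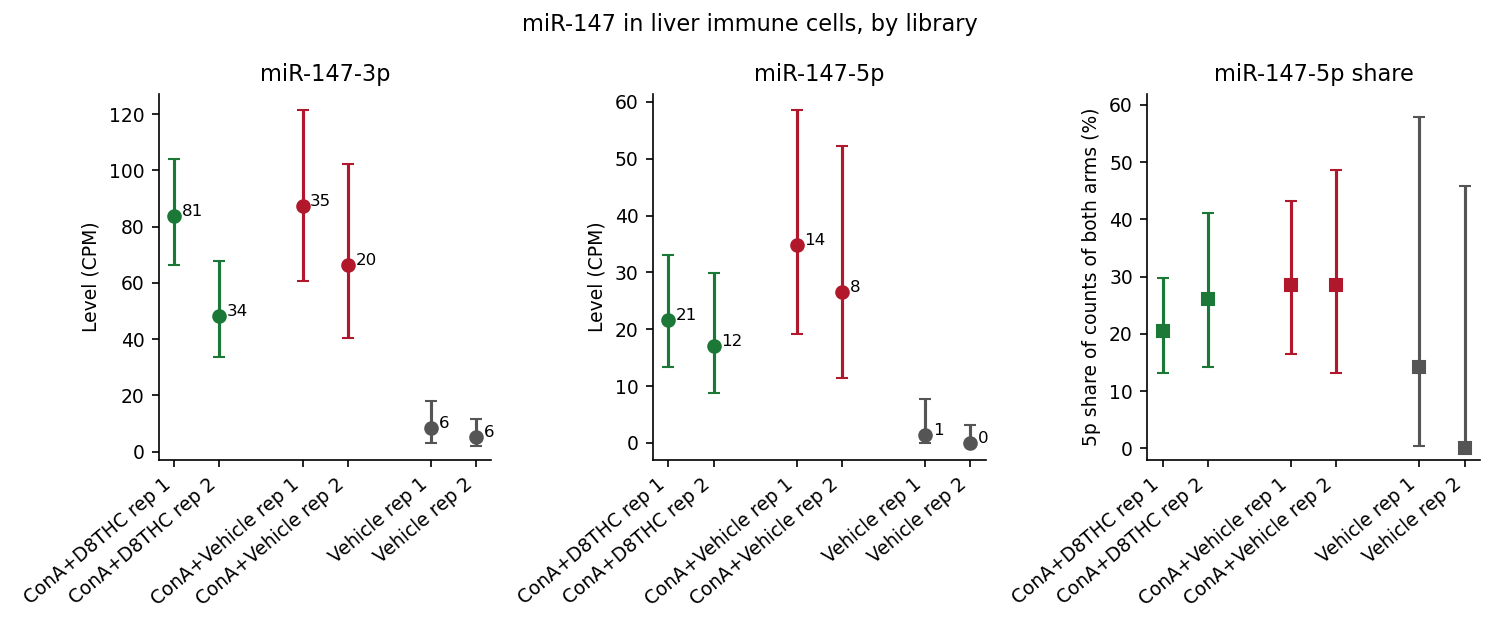
Levels of miR-147-3p (left) and miR-147-5p (middle) in CPM, and the 5p arm's percentage of the counts of both arms (right), in each of the 6 libraries. Points are single libraries, numbers beside them are counts, and bars are exact 95% counting intervals (Poisson for levels, binomial for shares). Both arms stand far lower in Vehicle (6 and 6 counts of miR-147-3p, 1 and 0 of miR-147-5p) than in either group given ConA.

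ConA+Vehicle was set against Vehicle to ask what changes in liver immune cells during ConA hepatitis. miR-147-3p rose to 76.7 ± 14.9 CPM in ConA+Vehicle, against 6.77 ± 2.14 CPM in Vehicle (SD, n = 2 libraries each). This was 11.6-fold, a log2 fold change of 3.53 ± 0.48 (SE), with a 95% interval of 5.55-fold to 24.1-fold (edgeR quasi-likelihood test, Benjamini-Hochberg adjusted p = 0.000418). miR-147-5p rose to 30.7 ± 5.96 CPM in ConA+Vehicle, against 0.690 ± 0.976 CPM in Vehicle (edgeR log2 fold change 5.44 ± 0.82, adjusted p = 0.000606). With 1 count in all of Vehicle, that fitted value depends on the prior count added by the fit. The 22 counts in ConA+Vehicle and 1 in Vehicle, scaled to depth, gave a ratio of 58.4 with a 95% counting interval of 9.43 to 2408. For miR-147-3p the same ratio, from 55 counts in ConA+Vehicle and 12 in Vehicle, was 12.2 (6.43 to 24.9).

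Of the 297 miRNAs tested in this comparison, 36.7% were called at an adjusted p under 0.05, with 19.9% called higher and 16.8% called lower in ConA+Vehicle. Both arms of miR-147 were called higher. Both arms stayed called in all 15 alternative analyses. The size of the miR-147-5p increase moved with the Vehicle libraries, to log2 4.31 without Vehicle replicate 2 and log2 7.44 without Vehicle replicate 1, which leaves a Vehicle group at 0 counts.

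The effect of D8THC on top of ConA was read from ConA+D8THC against ConA+Vehicle. Neither arm of miR-147 was called. miR-147-3p averaged 66.0 ± 24.9 CPM in ConA+D8THC and 76.7 ± 14.9 CPM in ConA+Vehicle (SD, n = 2 each), a log2 fold change of -0.21 ± 0.38 (edgeR, adjusted p = 0.882). Its 95% interval ran from log2 -1.05 to 0.62, so neither a halving nor a rise of 1.5-fold lies outside what these libraries allow. The sign itself changed to log2 0.15 without ConA+D8THC replicate 2, the lowest of the 4 libraries with ConA, and to log2 0.0035 without ConA+Vehicle replicate 1. miR-147-5p averaged 19.4 ± 3.25 CPM in ConA+D8THC and 30.7 ± 5.96 CPM in ConA+Vehicle, a log2 fold change of -0.66 ± 0.48 with an interval of -1.72 to 0.40 (edgeR, adjusted p = 0.582). For that arm the fitted value was below 0 in all 15 alternatives, which reuse the same 6 libraries, and it was called in none. In this comparison 3.70% of the 297 miRNAs were called, with 4 of 6 hepatocyte miRNAs among them. All 11 of these calls were lower in ConA+D8THC. That count ran from 8 without ConA+Vehicle replicate 1 to 44 with the replicate block, and was 34 without Vehicle replicate 1 and 40 without Vehicle replicate 2. In 6 of the 14 alternatives that kept it, among them DESeq2 and the block, the endothelial miR-126a-3p was called higher in ConA+D8THC.

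Summed over both arms, miR-147 was at 85.4 ± 28.2 CPM in ConA+D8THC, 107 ± 20.9 CPM in ConA+Vehicle and 7.46 ± 3.11 CPM in Vehicle. The order of the groups by mean was the same for each arm and for the sum. The upper 2 positions did not differ beyond the spread for miR-147-3p or the sum, and for miR-147-5p the difference was not called. Vehicle lay below both groups with ConA.

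Against Vehicle, ConA+D8THC also had more miR-147. miR-147-3p was 9.96-fold higher (log2 3.32 ± 0.46, 95% interval 4.92-fold to 20.2-fold, edgeR adjusted p = 0.000668). miR-147-5p had a log2 fold change of 4.78 ± 0.80 (edgeR adjusted p = 0.00169), and its 33 counts in ConA+D8THC against 1 in Vehicle gave a depth-scaled ratio of 36.8 (95% counting interval 6.16 to 1498). In this comparison 32.7% of miRNAs were called, with 18.5% called higher and 14.1% called lower in ConA+D8THC. Without Vehicle replicate 2 the log2 fold change of miR-147-5p was 3.68, and without Vehicle replicate 1 it was 6.80. This comparison and that of ConA+Vehicle with Vehicle share the Vehicle libraries, so they are not separate evidence of an increase.

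The balance of the arms was read as the share of miR-147-5p in the counts of both. It was 20.6% (95% exact binomial interval 13.2 to 29.7, of 102 counts) and 26.1% (14.3 to 41.1, of 46 counts) in ConA+D8THC replicates 1 and 2. In ConA+Vehicle it was 28.6% in both replicates, of 49 counts (16.6 to 43.3) and 28 counts (13.2 to 48.7). In Vehicle it was 14.3% (0.361 to 57.9, of 7 counts) and 0% (upper bound 45.9, of 6 counts). The 3p arm therefore held most of the counts in all 6 libraries. Every interval overlapped every other, so a shift in arm use between the groups was not detectable at this depth, and an exact two-sided permutation test of 2 against 2 libraries cannot go below p = 0.333.

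A ratio of counts within a library does not depend on how libraries are scaled, and miR-147 was set in this way beside miRNAs of known cellular source. miR-142a is made throughout the blood lineages. Per 1000 counts of miR-142a (both arms), miR-147 had 0.999 and 0.862 counts in ConA+D8THC, 1.25 and 0.961 in ConA+Vehicle, and 0.127 and 0.202 in Vehicle. On this scale ConA+Vehicle was 6.71-fold and ConA+D8THC 5.65-fold above Vehicle in the group means, with no overlap. The difference was thus also present relative to a haematopoietic miRNA.

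miR-223 is abundant in neutrophils and made in other myeloid cells too. Per 1000 counts of miR-223 (both arms), miR-147 had 5.14 and 4.51 counts in ConA+D8THC, 4.67 and 2.98 in ConA+Vehicle, and 2.79 and 1.45 in Vehicle. On this scale the separation was much smaller, at 2.28-fold for ConA+D8THC and 1.80-fold for ConA+Vehicle over Vehicle. The counting interval of the upper Vehicle library, 1.12 to 5.75, overlapped that of every library with ConA. In the lower ConA+Vehicle library it was 1.98 to 4.30. miR-223 itself took 1.48% to 2.17% of counts in ConA+D8THC, 2.75% to 2.91% in ConA+Vehicle and 0.333% to 0.353% in Vehicle. Its 2 arms were both called higher in each group with ConA against Vehicle, and the part of that change in the miR-147 result was not tested.

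Per 1000 counts of miR-155-5p, which is induced when lymphocytes and macrophages are activated, miR-147 had 14.4 and 12.0 counts in ConA+D8THC, 13.4 and 10.9 in ConA+Vehicle, and 6.39 and 4.82 in Vehicle. In the group means miR-147 thus stood 2.36-fold (ConA+D8THC) and 2.17-fold (ConA+Vehicle) above Vehicle relative to miR-155-5p, a miRNA that also rose. The counting interval of Vehicle replicate 1, with 7 miR-147 counts, was 2.57 to 13.2. It overlapped that of every library with ConA.

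**Figure D2:**
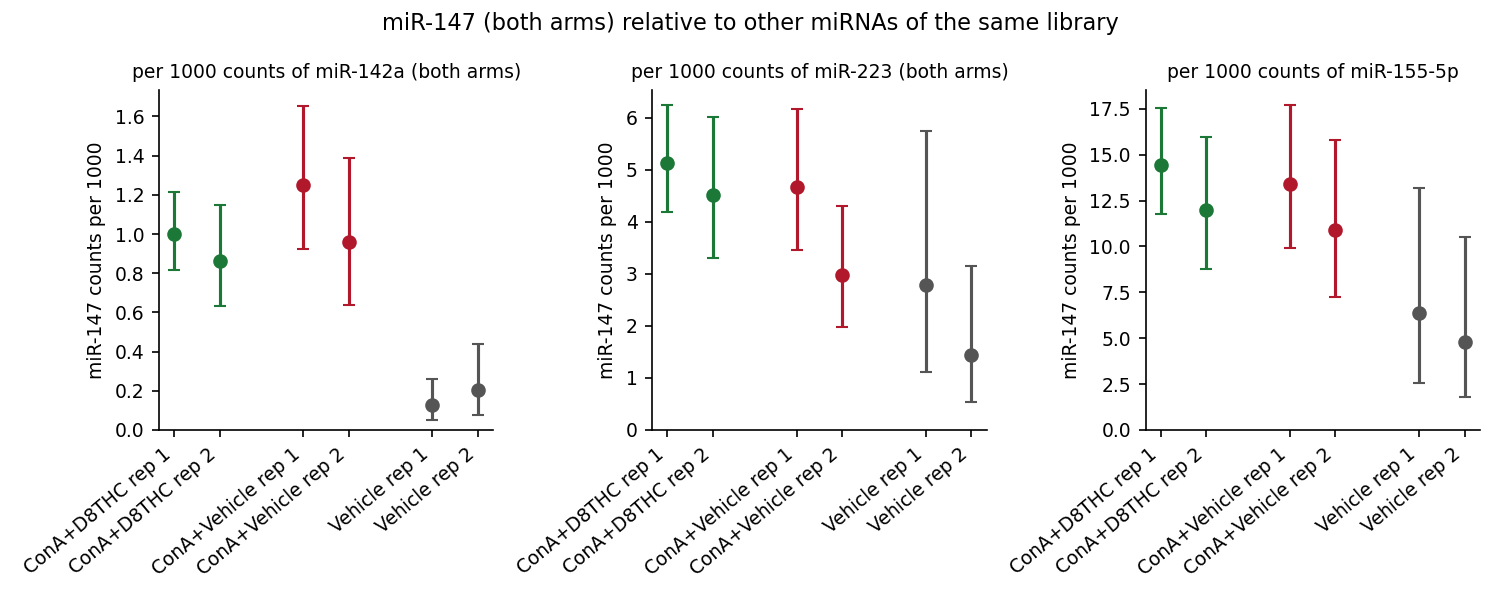
Counts of miR-147 (both arms) per 1000 counts of miR-142a, miR-223 or miR-155-5p of the same library, 1 point per library with a 95% Poisson interval of the miR-147 count. The gap to Vehicle is widest beside miR-142a (0.127 and 0.202 in Vehicle) and narrowest beside miR-223 (2.79 and 1.45 in Vehicle).

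Markers of some other cells moved between the groups as well, while no bile duct or erythroid marker was called in any comparison. The resident macrophage pair miR-511-3p and miR-511-5p, made from the mannose receptor gene Mrc1, took 0.00405% to 0.00569% of counts in ConA+D8THC, 0.00186% to 0.00210% in ConA+Vehicle and 0.0113% to 0.0154% in Vehicle. miR-511-3p was called lower in both groups with ConA against Vehicle. Its other arm did not follow in ConA+D8THC. There miR-511-5p averaged 24.7 CPM against 25.9 CPM in Vehicle (log2 -0.07, edgeR adjusted p = 0.899). miR-511-5p was called lower in ConA+Vehicle against Vehicle alone, and without Vehicle replicate 2 or either ConA+Vehicle library that call ended (edgeR adjusted p = 0.181, 0.0627 and 0.199), as it did with library totals, DESeq2 or limma-voom. The endothelial pair miR-126a took 20.7% to 26.7% of counts in ConA+D8THC, 12.8% to 13.2% in ConA+Vehicle and 32.7% to 34.2% in Vehicle. The 6 hepatocyte miRNAs took 5.18% to 7.15% of counts in ConA+D8THC, 17.1% to 19.7% in ConA+Vehicle and 8.35% to 13.9% in Vehicle. They did not all move alike. For ConA+Vehicle against Vehicle, 4 of these 6 were called higher, beside 19.9% of all 297 miRNAs. In the same comparison miR-122-3p was called lower (log2 -1.19), beside 16.8% of all 297, and miR-122-5p was not called. For ConA+D8THC against ConA+Vehicle, 4 of these 6 were called lower, beside 3.70% of all 297. They were miR-122-5p, miR-192-5p, miR-194-5p and miR-802-5p. No marker of these lists was at 0 in a whole group. With the endothelial and hepatocyte markers taken out of the table before scaling, miR-147-3p was at log2 3.48 for ConA+Vehicle against Vehicle and at log2 3.43 for ConA+D8THC against Vehicle. For ConA+D8THC against ConA+Vehicle, miR-147-3p was then at log2 -0.05, against -0.21 with the markers kept. miR-147-5p was at log2 -0.50, against -0.66, and neither arm was called.

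Other miRNAs induced through Toll-like receptors were read from a list of 16 that includes miR-147. The list was chosen with earlier results of these data known, so its calls describe it and are not a test. Of the 16, 11 passed the filter on low counts, 9 of them besides miR-147. Like miR-147, miR-9-5p passed only through the groups given ConA. For ConA+Vehicle against Vehicle, 5 of these 9 were called higher, 0 were called lower and 4 were not called, beside 19.9% called higher and 16.8% called lower of all 297 miRNAs. Their median log2 fold change was 1.54, against 0.10 over all 297. For ConA+D8THC against Vehicle the counts were again 5, 0 and 4, beside 18.5% called higher and 14.1% called lower of all 297, with a median of 1.35 against -0.06 over all. For ConA+D8THC against ConA+Vehicle none of the 11 was called by edgeR, DESeq2 or limma-voom, beside 3.70% of all 297 called by edgeR. With so low a share, the absence of calls among 11 says little about the list. Of the 11, 0 had an unadjusted edgeR p under 0.05. Over all 297, the edgeR p ranked 54th was 0.0465 and that ranked 57th was 0.0505.

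miR-155-5p was at 7285 and 5460 CPM in ConA+D8THC, 9125 and 8489 CPM in ConA+Vehicle, and 1511 and 1091 CPM in Vehicle. Its level in CPM was far above that of miR-147-3p in every library, and its fitted increase was 6.77-fold for ConA+Vehicle against Vehicle (edgeR adjusted p = 5.32e-05). miR-146b-5p, a brake on inflammatory signalling, was at 1467 and 1152 CPM in ConA+D8THC, 1007 and 1284 CPM in ConA+Vehicle, and 360 and 242 CPM in Vehicle. It rose 4.37-fold for ConA+D8THC and 3.81-fold for ConA+Vehicle against Vehicle (edgeR adjusted p = 0.000419 and 0.000418). Its close relative miR-146a-5p, with the same seed, was not called, at log2 -0.30 for ConA+D8THC and log2 -0.55 for ConA+Vehicle against Vehicle. Against Vehicle, ConA+Vehicle had it called lower by DESeq2 (adjusted p = 0.0461), with the replicate block (0.0191) and without Vehicle replicate 2 (0.0491). The 2 sequences are set side by side to show the shared seed in capitals; the near-identical pair can be confused in counting.
miR-146a-5p: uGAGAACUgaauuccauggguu
miR-146b-5p: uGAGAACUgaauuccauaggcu

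miR-21a-3p, the passenger strand of an inducible hairpin, was at 542 and 339 CPM in ConA+D8THC, 352 and 301 CPM in ConA+Vehicle, and 55.2 and 30.7 CPM in Vehicle. Its increase was 10.4-fold for ConA+D8THC and 7.74-fold for ConA+Vehicle against Vehicle (edgeR adjusted p = 0.000164 and 0.000348). The abundant guide strand miR-21a-5p rose 2.84-fold for ConA+D8THC (edgeR adjusted p = 0.0182) and 2.90-fold for ConA+Vehicle (0.0123) against Vehicle. Without Vehicle replicate 1 these were 4.90-fold for ConA+D8THC and 4.97-fold for ConA+Vehicle. miR-9-5p, induced in stimulated human monocytes and neutrophils, had 23 and 12 counts in ConA+D8THC, 11 and 6 in ConA+Vehicle, and 5 and 10 in Vehicle. It was called higher in both groups with ConA, at 2.56-fold for ConA+D8THC (edgeR adjusted p = 0.0434) and 2.96-fold for ConA+Vehicle (0.0353). These calls held in 5 (ConA+D8THC) and 8 (ConA+Vehicle) of 15 alternatives, and in both comparisons they ended without Vehicle replicate 1, without Vehicle replicate 2, or without ConA+Vehicle replicate 1. They also ended without ConA+D8THC replicate 1 or 2 in the comparison with ConA+D8THC, and without ConA+Vehicle replicate 2 in that with ConA+Vehicle, with highest adjusted p-values of 0.305 and 0.272 over the alternatives. The members not called against Vehicle, besides miR-146a-5p, were miR-132-3p, miR-132-5p and miR-212-3p, with log2 fold changes from -0.64 to 0.69.

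The 5 members below the filter were passenger strands and other minor arms. miR-155-3p had 3 and 1 counts in ConA+D8THC, 6 and 3 in ConA+Vehicle, and 0 and 0 in Vehicle. miR-146b-3p had 6 and 2 counts in ConA+D8THC, 1 and 0 in ConA+Vehicle, and 0 and 0 in Vehicle. miR-146a-3p, miR-212-5p and miR-9-3p had between 0 and 9 counts in every library.

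**Figure D3:**
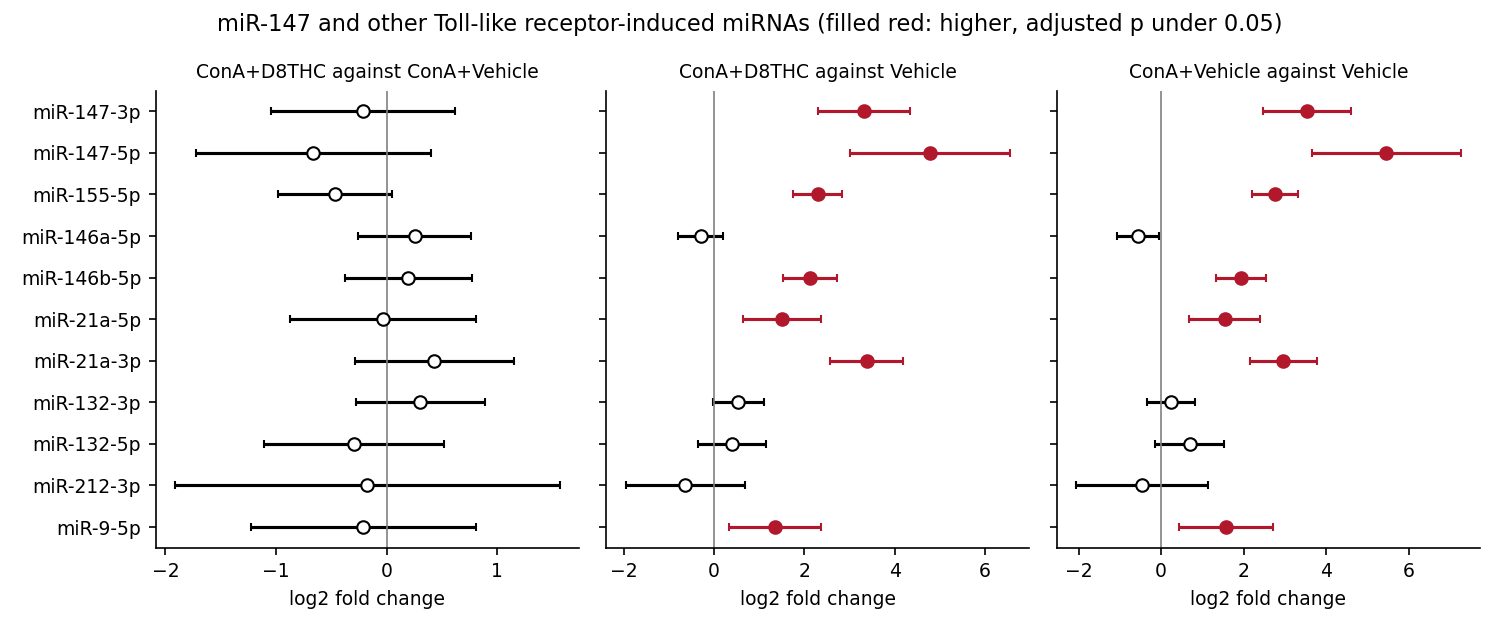
Log2 fold changes (edgeR) of both arms of miR-147 and 9 other Toll-like receptor-induced miRNAs in the 3 comparisons, with approximate 95% intervals. Filled red points are called higher at an adjusted p under 0.05 and open points are not called. Against Vehicle (middle and right) miR-147-5p lies farthest to the right, at log2 4.78 and 5.44, and for ConA+D8THC against ConA+Vehicle (left) no point is filled.

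The miRNAs whose level followed miR-147-3p most closely were found by Pearson's r of log2 CPM over the 6 libraries, among 290 other miRNAs with a mean of at least 10 CPM. The 5 highest were miR-20b-5p (0.999), miR-92a-3p (0.997), miR-140-3p (0.994), miR-155-5p (0.993) and miR-25-3p (0.992). The points share 3 groups and the step from Vehicle to ConA, and 44 of the 290 reached an r of 0.9, so this ranking describes likeness only. The arms of miR-147 had an r of 0.991 with each other. By Spearman's rho, 2 of these 5 stayed among the highest 5.

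miR-20b-5p, of the miR-17 family, was at 1534 and 990 CPM in ConA+D8THC, 1683 and 1453 CPM in ConA+Vehicle, and 225 and 169 CPM in Vehicle. It can share reads with the near-identical miR-20a-5p. miR-92a-3p, which is made from more than one locus, was at 1766 and 1316 CPM in ConA+D8THC, 1808 and 1698 CPM in ConA+Vehicle, and 546 and 501 CPM in Vehicle. For all 5, as for miR-147-3p, the lowest of the 4 libraries with ConA was ConA+D8THC replicate 2. Their sequences (RefSeq, GRCm38.p6) are shown with seeds in capitals because none repeats the seed of miR-147-5p given above, and 2 of them, miR-92a-3p and miR-25-3p, carry the same seed as each other.
miR-20b-5p: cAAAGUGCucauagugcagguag
miR-92a-3p: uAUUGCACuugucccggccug
miR-25-3p: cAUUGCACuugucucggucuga
miR-140-3p: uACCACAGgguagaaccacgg
miR-155-5p: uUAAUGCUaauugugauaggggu

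**Figure D4:**
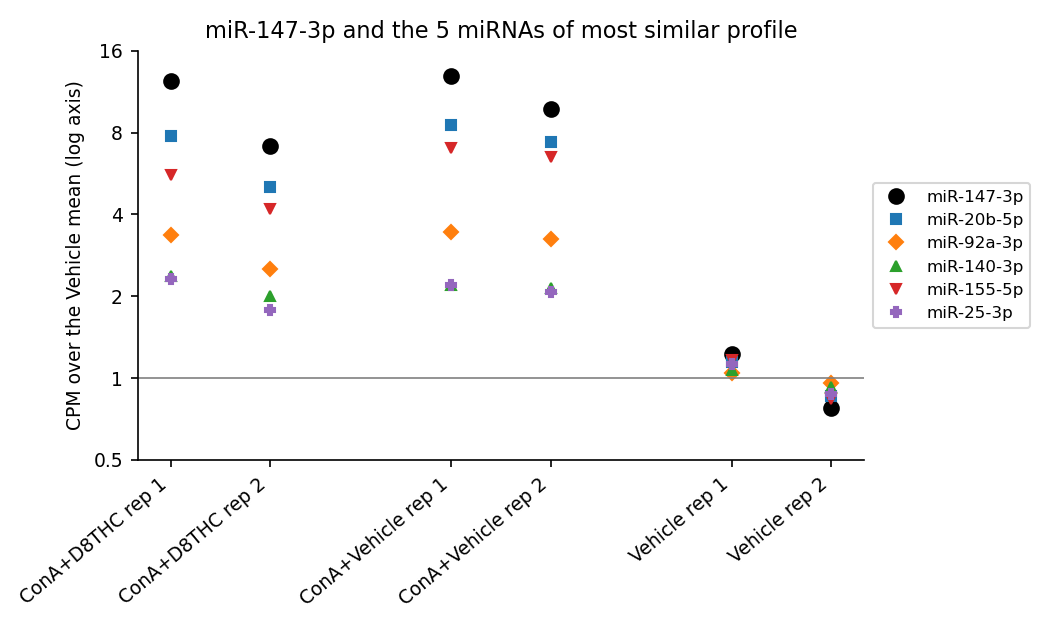
CPM over the mean of the 2 Vehicle libraries (log axis) for miR-147-3p (black) and the 5 miRNAs with the highest Pearson's r to it, in each library. All 6 are above 1 in the 4 libraries with ConA, with miR-147-3p highest, and ConA+D8THC replicate 2 is the lowest of these 4 for each.

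The transcription of AA467197 itself was not measured. Its promoter, as the 250 bases before and 50 after the RefSeq start, was searched on both strands for motifs of factors that act in inflammation. It held 1 match to the AP-1 motif TGANTCA, starting 73 bases before the start site, a motif found in 7.81% of 32851 promoters of this length. It held no match to the NF-kappaB motif (present in 8.46% of promoters), the C/EBP motif TTGCNNAA (10.8%), the interferon-stimulated response element (3.44%) or the cyclic AMP response element TGACGTCA (1.79%). With 1 match in the window, no motifs overlapped. The stretch outside annotated exons is given with the AP-1 match in capitals, since it carries the one match found: chromosome 2, 122637755 to 122637849, plus strand, GRCm38.p6, RefSeq.
AA467197 promoter stretch: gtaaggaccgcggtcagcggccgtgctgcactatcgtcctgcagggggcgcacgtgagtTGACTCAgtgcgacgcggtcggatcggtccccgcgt
A match is only a match of letters, and these libraries do not show whether any factor binds there.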

How the data were processed

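The authors' deposited values are raw read counts, 1 row per mature mouse miRNA, made in the QIAGEN GeneGlobe portal from QIAseq libraries sequenced on a NextSeq 550, per the series' design text. The build is mm10, per the submitters' processing notes; the aligner, the miRNA release, and the use of molecular identifiers are, in the sources used here, not given. Library totals ran from 322764 to 1172389. Counts were tested in R 4.3.3 with edgeR 4.0.16 (filterByExpr by group, 297 of 806 miRNAs with a count; TMM; 1 group design over 6 libraries with 3 residual degrees of freedom; robust glmQLFit, glmQLFTest; Benjamini-Hochberg over the 297). Approximate standard errors are the log2 fold change over the root of F. Log2 CPM for likeness used a prior count of 2. The procedure was tested on simulated data. DESeq2 1.42.0 and limma 3.58.1 were alternatives, beside other scalings and filters, a replicate block and leaving out each library. The members, the lists and the rule for named miRNAs (both arms, the Toll-like receptor list, the 5 most like miR-147-3p, miRNAs sharing a seed with an arm, and marker miRNAs; miR-511 was named after its values were seen) were chosen with earlier results of these data known. Matched sequences were found for 1671 of 1960 miRNAs. Figures used Python 3.11.15 and matplotlib 3.10.9.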

Additional observations from a re-analysis of the deposited data

How the results depend on the processing

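Both arms of miR-147 were called higher against Vehicle in all 15 alternatives, and called in none of them for ConA+D8THC against ConA+Vehicle. Leaving out 1 library at a time, the log2 fold changes for ConA+Vehicle against Vehicle ran from 3.20 to 3.81 (miR-147-3p) and 4.31 to 7.44 (miR-147-5p). For ConA+D8THC against Vehicle they ran from 2.87 to 3.69 and 3.68 to 6.80, and for ConA+D8THC against ConA+Vehicle from -0.66 to 0.15 and -0.84 to -0.44. miR-147-3p turned to log2 0.0035 without ConA+Vehicle replicate 1 and 0.15 without ConA+D8THC replicate 2 in the last comparison; the cause was not tested. A group left with 1 library was assumed to vary like the others. The numbers of the replicates are not stated to mark shared animals or days, and replicate deviations correlated between groups at 0.0726 to 0.238. With the replicate block, miR-147-3p was at log2 3.48 and miR-147-5p at 5.38 in ConA+Vehicle over Vehicle. In ConA+D8THC the block gave -0.23 and -0.66 over ConA+Vehicle, and 3.24 and 4.72 over Vehicle, with no call of either arm changed. Other settings moved the median of all miRNAs by up to 0.16 on the log2 scale. Over all miRNAs, the 109 calls for ConA+Vehicle against Vehicle became 67 without ConA+Vehicle replicate 1, and the 97 for ConA+D8THC against Vehicle 63 without ConA+D8THC replicate 1. The 11 for ConA+D8THC against ConA+Vehicle became 17 with upper-quartile factors, in DESeq2, and without ConA+Vehicle replicate 2 or ConA+D8THC replicate 1, 18 with 2 against 2 libraries, 19 with no filter, 24 without ConA+D8THC replicate 2, 34 and 40 without Vehicle replicates 1 and 2, and 44 with the replicate block. The miR-147-5p fold changes against Vehicle rest on 1 count in all of Vehicle.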
